A study of Arabidopsis thaliana with 24 samples.

Results

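The genes described here are those whose RNA was higher in shoots of an EXPA1 overexpressing (OE) line than in wild type (WT) shoots after 7 days on dexamethasone (Dex), but, within the limits given next, not after 3 h of Dex and not without Dex. They were picked by a fixed rule from gene levels in CPM (a gene's estimated count scaled to a fixed library total). The rule compares group means over 4 libraries as log2 ratios of OE to WT, with 0.5 CPM added to each mean. A member has a mean of at least 2 CPM in the OE line after 7 days, a 7-day ratio of at least 1, a 3 h ratio of under 0.58 in size and a ratio without Dex of under 1 in size. Of 33602 genes in the table, 171 met all 4 conditions, and 163 of them are annotated as protein-coding, 7 as pseudogenes and 1 as a non-coding RNA.

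RNA was measured from shoots of 7-day-old Arabidopsis thaliana seedlings of ecotype Col-0 by poly(A) RNA sequencing, with 4 biological replicates in each of 6 groups. The OE line, 8-4, and WT were each grown with no Dex, given Dex for 3 h, or kept on Dex medium for 7 days, so that WT seedlings saw the same Dex as the line. In this line Dex activates a hormone-receptor fusion under the RPS5A promoter, which is most active in dividing cells, and the activated fusion switches on EXPA1. The OE line is a single transgenic line, and the time of day at which each group was collected is not given in the sources used here. Because whole shoots were measured, more cells of a type and more RNA per cell cannot be told apart for any gene below.

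Expansins are wall proteins that let cellulose and xyloglucan slip past each other, and so loosen the growing wall without cutting its polymers. Sucrose made in leaves moves through the phloem of plants together with amino acids released into the transport stream, and the medium of these seedlings also held sucrose, per the study's methods. Transporters of the UMAMIT family (usually multiple acids move in and out transporters) carry out much of that amino acid release. When light or sugar runs short, leaf cells are known to break down proteins and burn branched-chain amino acids in mitochondria, and genes for these steps rise in darkness.

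The libraries held 33618187 to 82187304 estimated counts. EXPA1 itself averaged 428 ± 37.7 CPM in the OE line and 342 ± 163 CPM in WT without Dex, 18770 ± 1271 CPM and 371 ± 41.9 CPM after 3 h, and 13691 ± 1831 CPM and 387 ± 90.9 CPM after 7 days (SD, n = 4 each). The 5 shoot markers summed to between 44283 and 57532 CPM in OE and 51366 and 60548 CPM in WT libraries after 7 days, and the tissue label was met in each. The 6 root markers summed to 917 to 1480 CPM in the OE line and 1543 to 1807 CPM in WT after 7 days. Nearly all of it came from PYK10, a glucosidase gene. Without Dex the root markers also differed, at 1016 to 1167 CPM in the OE line and 1384 to 2117 CPM in WT. The 4 seed markers summed to 4.02 to 47.1 CPM in OE and 123 to 185 CPM in WT libraries after 7 days. Their sums differed without Dex too, at 1.62 to 15.4 CPM in OE and 89.8 to 192 CPM in WT libraries. No member was on the seed maturation list. After 7 days the libraries numbered 1 and 2 stood apart from those numbered 3 and 4 in both genotypes for many members, as given below.

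The 7-day ratios that chose the members ran from 1.00 to 3.15, with a median of 1.21, against a median of 0.06 over the 16860 genes with at least 2 CPM in the OE line after 7 days. The median 3 h ratio of the members was -0.03 and their median ratio without Dex was 0.15. Of the 392 genes with a 7-day ratio of at least 1, 180 were left out because their 3 h ratio was 0.58 or more, 33 because it was -0.58 or less, and a further 8 because of the ratio without Dex. Mean levels of the members in the OE line after 7 days spanned 2.16 to 2526 CPM with a median of 10.6 CPM, so most were genes of low to middling abundance: 49 lay under 5 CPM and 19 at 100 CPM or more. The members' exons were 1372 bases long at the median, against 1613 bases for all genes with at least 2 CPM.

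All 4 OE libraries lay above all 4 WT libraries after 7 days for 140 of the 171 members, where 14.8% of all genes tested did so. This contrast made the rule, so the count describes the spread between libraries and supports nothing further. In 167 members the OE library was above the WT library of the same replicate number for every number, the exceptions being NAC3 (2 of 4 numbers) and FRD3, WCRKC1 and YUC9 (3 of 4 each). By edgeR's quasi-likelihood test, 127 of the 171 members were called higher in OE after 7 days (adjusted p under 0.05 and log2 fold change of at least 1), beside 2.22% of all genes. With the replicate number as a block 154 members were called, and with the 7-day libraries numbered 3 and 4 alone, or 1 and 2 alone, 142 and 140.

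**Figure D1:**
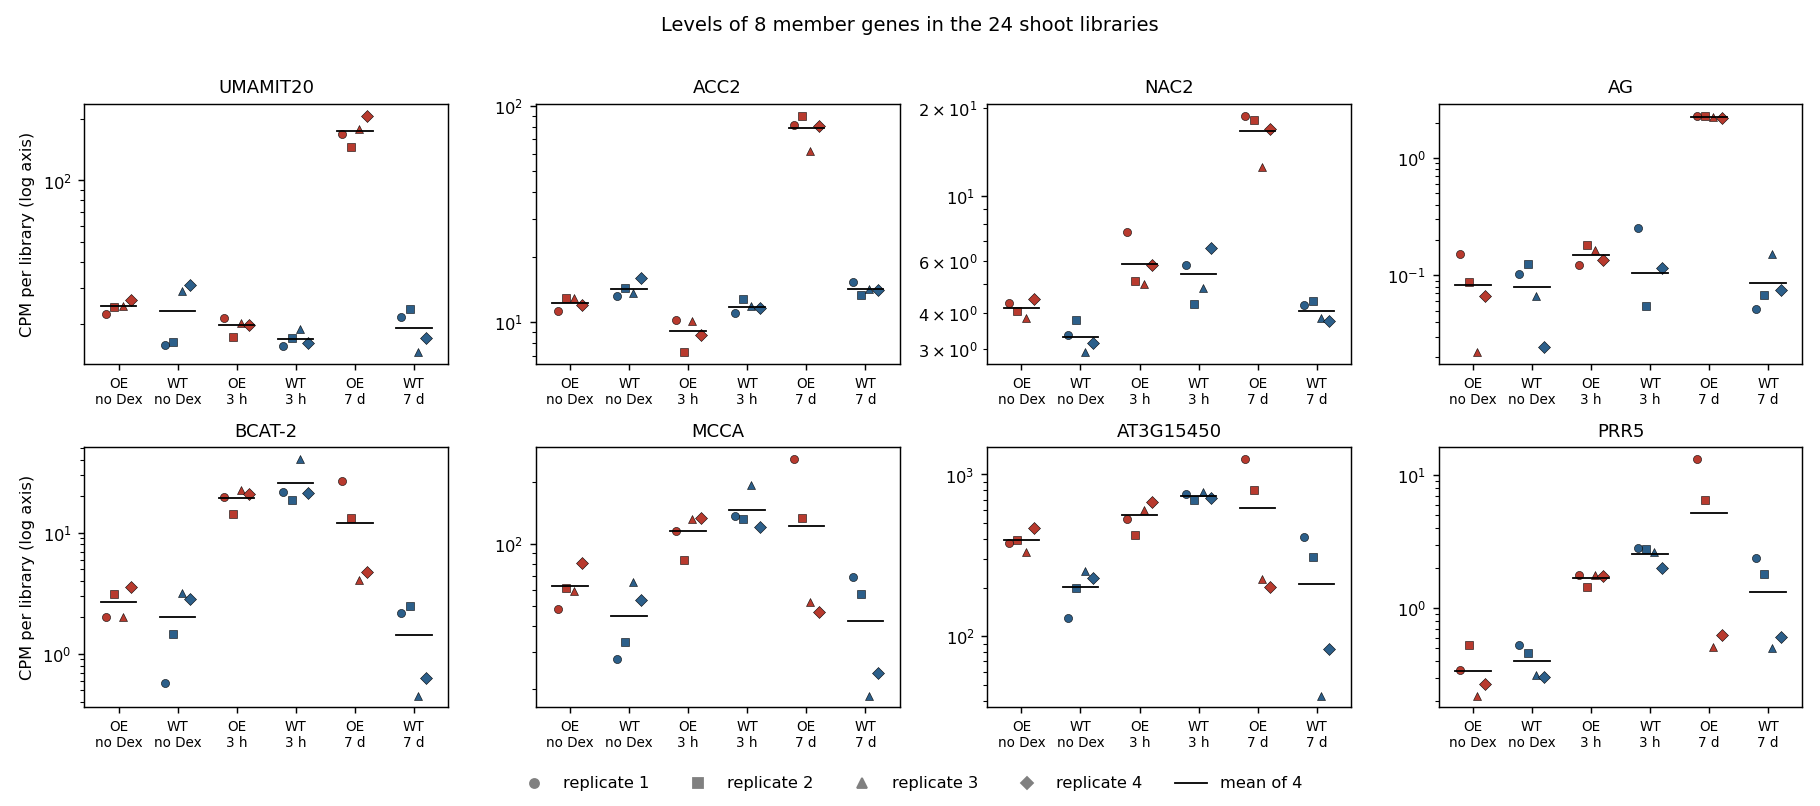
Levels of 8 member genes in the 24 shoot libraries, as CPM on a log axis. Each symbol is a library, its shape the replicate number, and each line is the mean of 4; OE stands left of WT within each treatment. UMAMIT20, ACC2 and NAC2 are high in the 4 OE libraries after 7 days, while BCAT-2 and PRR5 are also high in both genotypes after 3 h and split by replicate number after 7 days. A library at 0 (AG, WT after 3 h, replicate 3) cannot be drawn on this axis.

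UMAMIT20 (AT4G08290, chromosome 4, 5238906 to 5241034 on TAIR10, plus strand), a transporter of the amino acid exporting family, had the largest 7-day ratio of all members, 3.15. Its levels were 169, 146, 179 and 207 CPM in the 4 OE libraries after 7 days, against 21.7, 23.6, 14.6 and 17.0 CPM in WT. No library of any other group came above 30.9 CPM. After 3 h the gene stood at 19.7 ± 1.79 CPM in the OE line and 16.9 ± 1.44 CPM in WT, and without Dex at 24.4 ± 1.56 CPM and 23.0 ± 7.96 CPM (SD, n = 4 each). Within the OE line it was 0.35 ± 0.06 lower after 3 h than without Dex on the log2 scale (edgeR, adjusted p = 0.00037), a change under the 1 needed for a call.

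The whole family, chosen after these values were seen, was then read. Among its 47 genes, 27 had at least 2 CPM in OE shoots after 7 days, and 8 of these were members: UMAMIT20, UMAMIT30, SIAR1, UMAMIT28, UMAMIT22, UMAMIT21, UMAMIT17 and UMAMIT12. Their ratios other than that of UMAMIT20 lay between 1.02 and 1.57. UMAMIT30 had 39.6, 46.4, 71.0 and 70.7 CPM in OE libraries and 16.4, 16.3, 20.5 and 22.1 CPM in WT libraries. SIAR1, a bidirectional amino acid carrier known from siliques, had 34.0, 33.6, 47.6 and 61.6 CPM in OE libraries and 19.9, 21.3, 14.8 and 18.9 CPM in WT libraries. For both genes, and for all the family's members other than UMAMIT12, the groups did not overlap.

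UMAMIT12 overlapped, with 17.3, 21.7, 48.1 and 55.1 CPM in OE libraries and 10.5, 13.1, 20.5 and 25.1 CPM in WT libraries. In this gene the replicates numbered 3 and 4 were the high ones in both genotypes. UMAMIT14, which had the second highest 7-day ratio of the family at 2.59, and UMAMIT29 at 1.66 fell outside the rule because their 3 h ratios were -0.74 and -1.13. UMAMIT33 missed the 7-day limit with a ratio of 0.92. Over the 36 UMAMIT genes tested, 10 were called higher in OE after 7 days by edgeR, beside 2.22% of all genes, and the median log2 fold change was 0.22, against 0.00 over all genes. The contrast made the rule and the family was picked for these values, so nothing is read from the count.

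**Figure D2:**
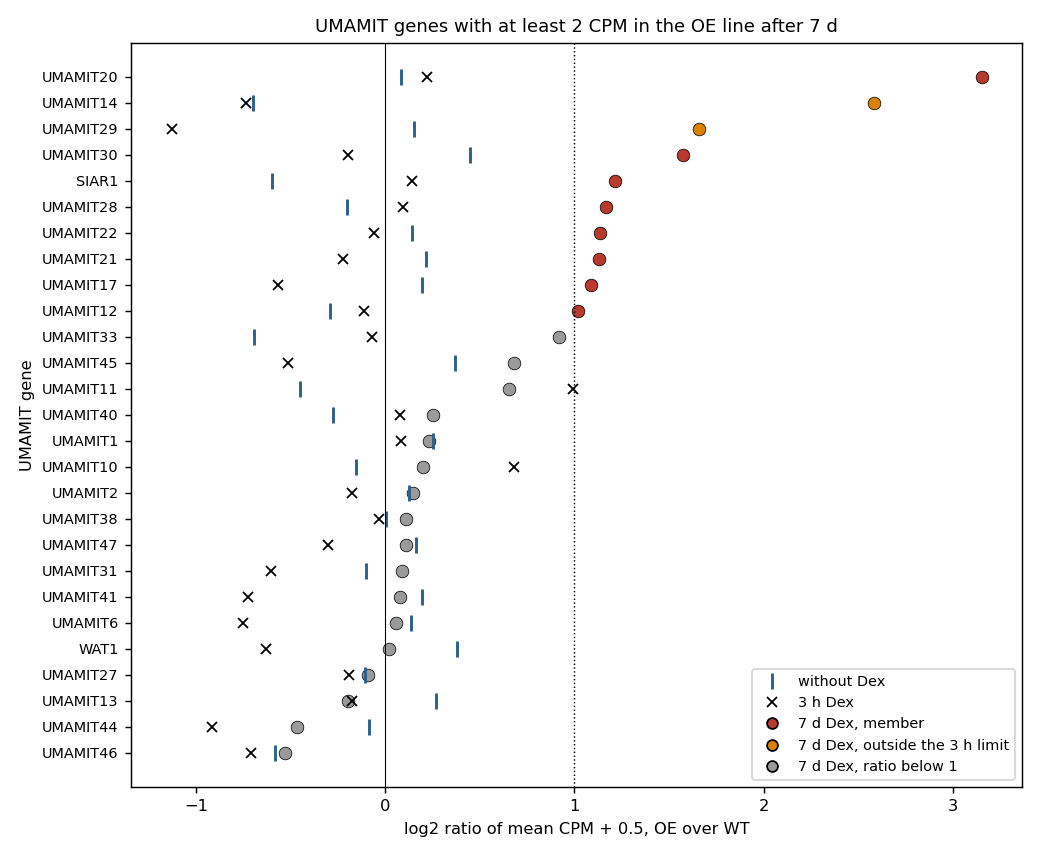
Log2 ratios of OE to WT (group means of CPM plus 0.5) for the 27 UMAMIT genes with at least 2 CPM in the OE line after 7 days; bars mark no Dex, crosses 3 h of Dex and circles 7 days, and the dotted line marks a ratio of 1. UMAMIT20 lies apart at 3.15 after 7 days, and UMAMIT14 at 2.59 is not a member because its 3 h ratio is -0.74.

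Genes that make or break sucrose and callose near the phloem formed another set, also chosen after the values were seen. SUS5 and SUS6, sucrose synthases known from phloem cells, were 2 of the 6 genes of their family to be members. SUS5 had 8.03, 9.18, 8.82 and 10.7 CPM in OE libraries after 7 days and 3.72, 4.55, 3.94 and 4.12 CPM in WT libraries. SUS6 had 20.0, 25.3, 24.2 and 21.9 CPM in OE libraries and 11.0, 11.7, 9.79 and 10.6 CPM in WT libraries. No OE library of either gene overlapped a WT library, the 7-day ratios were 1.08 and 1.05, and the libraries of a group stayed close together.

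Of 12 callose synthases, which lay down the glucan that narrows plasmodesmata and sieve pores, GSL04 and GSL11 were members with ratios of 1.06 and 1.12. GSL11 had 37.5, 40.6, 33.4 and 31.7 CPM in OE libraries and 17.2, 14.7, 15.0 and 17.7 CPM in WT libraries. CALS1 had a larger ratio (1.76) but was already higher in OE after 3 h (1.37), and CalS7, the sieve-plate enzyme, had a ratio of 0.85. PDLP7, of the plasmodesmata-located protein family, stood at 14.3 to 17.8 CPM in OE and 6.04 to 7.27 CPM in WT.

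RTM2 and RTM3, which are known for blocking long-distance movement of a potyvirus through the phloem, had ratios of 1.25 and 1.23. RTM2 had 17.5, 17.6, 15.1 and 15.1 CPM in OE libraries and 7.41, 6.49, 6.12 and 6.22 CPM in WT libraries. C/VIF1, an inhibitor of invertases, had 19.6, 22.5, 26.9 and 28.0 CPM in OE libraries and 7.04, 6.25, 7.16 and 6.76 CPM in WT libraries. C/VIF1 also fell after 3 h in the OE line, by 1.45 on the log2 scale (SE 0.08; edgeR, adjusted p = 4.5e-08), while the WT change was -0.83 ± 0.12 and under the fold threshold. Differences between the genotypes in such 3 h changes were not tested, here or below. The 4 phloem markers were SUC2, APL, SEOR1 and CALS7. After 7 days they summed to 253 to 363 CPM in OE libraries and 157 to 274 CPM in WT libraries. SUC2 made up the largest part and overlapped, at 138 to 238 CPM in OE and 96.6 to 204 CPM in WT. APL did not overlap, at 22.0 to 26.1 CPM in OE and 15.4 to 17.3 CPM in WT. Neither did SEOR1 (77.0 to 85.8 against 37.3 to 45.4 CPM) or CALS7 (13.7 to 15.5 against 6.73 to 8.28 CPM). By edgeR 0 of the 4 were called higher in OE after 7 days. Without Dex the sums were already higher in OE, at 252 to 277 CPM against 210 to 231 CPM in WT. After 3 h they were lower in OE, at 69.7 to 97.7 CPM against 227 to 271 CPM in WT. The part of these markers in the results was not tested. No member was on the longer list of 12 phloem genes, whose median 7-day log2 fold change was 0.73.

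AGAMOUS (AG, AT4G18960), the MADS-box gene that specifies stamens and carpels, was a member although all other groups were near 0. It had 2.29, 2.27, 2.25 and 2.18 CPM in the 4 OE libraries after 7 days, against 0.0516, 0.0684, 0.151 and 0.0751 CPM in WT. Summed over the 4 libraries this was 333 estimated counts in OE and 22 in WT. In the other 4 groups the sums were 17 to 33 counts. AG was not tested at 3 h because its counts were too low for edgeR's filter.

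Of the members, 11 had a mean under 1 CPM in all 5 other groups, and for 6 of these it was under 0.5 CPM. AT2G17170, annotated as a protein kinase, had 2.97, 2.13, 2.14 and 1.98 CPM in OE libraries after 7 days, while 3 of the WT libraries were at 0 and the fourth at 0.0342 CPM. AT4G05380, a P-loop nucleotide hydrolase, had 2.26, 2.21, 2.12 and 2.93 CPM in OE libraries and 0.0860, 0.0684, 0.0670 and 0.0375 CPM in WT libraries. Another MADS-box gene, AT1G59930, annotated as maternally expressed and imprinted, had 3.48, 3.55, 2.25 and 2.26 CPM in OE libraries and 0.182, 0.262, 0 and 0.268 CPM in WT libraries.

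The others of the 11 were the pseudogene AT4G04293, chr31, AT5G53230, AT3G27027, ENT4, AGP30 and DSEL. chr31, of a family of chromatin remodelling proteins, had 2.92 to 4.51 CPM in OE libraries and 0.619 to 0.922 CPM in WT libraries. ENT4, a nucleoside transporter, had 2.23 to 3.32 CPM in OE libraries and 0.536 to 0.924 CPM in WT libraries. The SADHU3-2 pseudogene, of a retroelement family known to be silenced by DNA methylation in some accessions, had 3.75 to 5.38 CPM in OE libraries and 0.914 to 1.79 CPM in WT libraries. The 4 floral markers (AP3, PI, AG and STK) summed to 2.75 to 3.59 CPM in OE libraries and 0.188 to 0.419 CPM in WT libraries after 7 days, most of it from AG. Among the others, AP3 had at most 0.526 CPM and PI at most 0.804 CPM in an OE library after 7 days, against at most 0.0501 and 0.206 CPM in a WT library. STK was near 0 in both, with at most 0.0804 CPM in an OE library and 0.0503 CPM in a WT library.

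Several transcription factors with other roles were members. NAC2 (AT3G15510, also ANAC056), the member on the list of 15 leaf senescence genes and known for a role in seed coat development, had 18.8, 18.1, 12.6 and 16.9 CPM in OE libraries after 7 days and 4.25, 4.38, 3.84 and 3.73 CPM in WT libraries. BZIP9, a bZIP factor expressed in phloem, had 82.8, 75.9, 55.3 and 54.4 CPM in OE libraries and 20.0, 20.1, 15.3 and 15.9 CPM in WT libraries. UPB1, which sets the peroxide balance at the root's transition zone, had 4.52, 4.77, 2.41 and 3.78 CPM in OE libraries and 0.636, 1.06, 0.536 and 0.526 CPM in WT libraries. All 3 were separated between the genotypes. UPB1 was also called higher after 3 h than without Dex, by 2.22 ± 0.21 in WT and 1.59 ± 0.18 in OE on the log2 scale.

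Rap2.6L, an ERF factor linked to shoot regeneration and wounding, averaged 14.1 ± 2.86 CPM in OE and 3.58 ± 0.813 CPM in WT. After 3 h Rap2.6L was also called higher than without Dex, by 1.13 ± 0.27 in WT and 2.01 ± 0.21 in OE on the log2 scale. LOB, a boundary gene at the base of lateral organs, stood at 7.08 to 9.28 CPM in OE and 2.96 to 4.41 CPM in WT, and HAM4, a GRAS protein of meristem maintenance, at 18.1 to 38.8 CPM and 10.9 to 16.5 CPM. Of the 18 flowering-time genes 2 were members. AGL20 (SOC1), which integrates flowering signals, had 23.2, 22.0, 15.0 and 13.3 CPM in OE libraries and 8.89, 9.14, 8.90 and 8.43 CPM in WT libraries. SPL3, which promotes the floral transition, overlapped between genotypes with 9.10, 7.04, 3.27 and 2.03 CPM in OE libraries and 3.30, 2.38, 1.09 and 1.23 CPM in WT libraries.

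Few wall genes of the lists were members. Among 14 xyloglucan endotransglucosylase/hydrolase (XTH) genes, whose enzymes cut and rejoin xyloglucan, XTH10 and XTH24 met the rule, and none of the 22 expansins did. XTH24 had 165, 79.4, 116 and 108 CPM in OE libraries after 7 days and 35.9, 46.9, 31.7 and 42.6 CPM in WT libraries. XTH24 was also higher after 3 h than without Dex in both genotypes, by 2.27 ± 0.06 in OE (edgeR, adjusted p = 2.4e-10) and 2.24 ± 0.30 in WT (adjusted p = 0.00057), and within OE its difference between 7 days and no Dex, 0.88 ± 0.20, was under the fold threshold. Of the 8 pectin methylesterases that the paper names, PMEPCRA (AT1G11580) and PMEPCRF (AT5G53370) were members. The paper names these 8 because they differed in the same libraries, so the count is not a share of the whole family. PMEPCRA had 51.1, 63.0, 121 and 172 CPM in OE libraries and 39.0, 48.9, 41.2 and 46.1 CPM in WT libraries, and PMEPCRA rose by 1.14 ± 0.11 after 3 h within the OE line (edgeR, adjusted p = 3.4e-06), with 0.14 ± 0.13 in WT (adjusted p = 0.43). On 14 of the 19 lists no gene was a member. One of these was the endoplasmic reticulum folding list, of whose 21 genes 10 met the 7-day limit but were outside the 3 h limit.

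Enzymes of nucleotide sugars and lipids included some of the largest differences. UGE1, the epimerase that interconverts UDP-glucose and UDP-galactose, had 305, 215, 150 and 136 CPM in OE libraries after 7 days and 65.6, 58.5, 20.7 and 28.6 CPM in WT libraries. ACC2, a plastid acetyl-CoA carboxylase of fatty acid synthesis, had 81.9, 89.9, 61.9 and 80.6 CPM in OE libraries and 15.4, 13.3, 14.3 and 14.1 CPM in WT libraries. All other groups of ACC2 averaged between 9.07 and 14.3 CPM. KCS12, a fatty acid elongase, had 83.3, 43.6, 26.8 and 24.8 CPM in OE libraries and 10.8, 10.1, 5.31 and 7.12 CPM in WT libraries. KCS12 was also called higher after 3 h than without Dex, by 3.25 ± 0.15 in WT and 2.82 ± 0.09 in OE on the log2 scale.

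IMS2 (MAM3), which lengthens the side chains of methionine-derived glucosinolates, had 39.7, 51.6, 84.0 and 112 CPM in OE libraries and 12.1, 17.2, 15.3 and 22.7 CPM in WT libraries. AT3G11930, annotated as an adenine nucleotide alpha hydrolase-like protein, was among the most abundant members, with 692, 607, 549 and 573 CPM in OE libraries and 176, 185, 135 and 136 CPM in WT libraries. AT1G12010, annotated with 1-aminocyclopropane-1-carboxylic acid oxidase activity, which makes ethylene, averaged 4.75 ± 0.758 CPM in OE and 0.660 ± 0.202 CPM in WT. MRU1, GASA1 (a gibberellin-responsive peptide gene) and the major facilitator gene AT5G14940 had ratios of 1.97, 1.47 and 1.86, each without overlap.

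The chlorophyll-binding gene LHB1B1 was the most abundant member, with 3818, 3481, 1520 and 1286 CPM in OE libraries and 1881, 1796, 492 and 612 CPM in WT libraries, so that its groups overlapped. Reads of LHB1B1 may be shared with near-identical LHCB1 copies, and its estimated count depends on how they were divided. LHCB4.3, a minor antenna protein, had tight replicates instead, with 229, 244, 231 and 224 CPM in OE libraries and 111, 99.1, 121 and 120 CPM in WT libraries. Without Dex it averaged 96.9 CPM in OE and 109 CPM in WT, and it fell after 3 h in both genotypes, by 1.32 ± 0.06 in OE (edgeR, adjusted p = 8.3e-09) and by 1.25 ± 0.09 in WT (adjusted p = 2.2e-05).

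The rule used the 3 h libraries only as ratios between genotypes, so the change from no Dex to 3 h within a genotype could be tested. The labels name no group handled for 3 h without Dex, so Dex, handling and time of collection cannot be told apart in it. The changes in the 2 genotypes are tied to each other by the limits on the ratios, and a change in OE is no independent repeat of that in WT. In WT, 45 of 168 members tested were higher after 3 h of Dex than without Dex (26.8%, beside 3.57% of all genes tested) and 7 were lower (4.17%, beside 5.38%; edgeR). In OE, 40 of 167 members were higher (beside 9.05% of all genes) and 11 were lower (beside 9.06%). Of the 45 genes higher in WT, 32 were also called in OE. The medians of the members' log2 fold changes were 0.14 in OE and 0.24 in WT, against 0.01 and 0.02 over all genes.

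The methyltransferase gene AT1G15125 showed the largest change in WT, with 23.8, 20.4, 23.8 and 29.4 CPM after 3 h and 0.325, 0.658, 0.716 and 0.268 CPM without Dex (5.61 ± 0.28 on the log2 scale; edgeR, adjusted p = 5.4e-06). In OE it rose by 5.51 ± 0.21. MIOX4, an inositol oxygenase that feeds UDP-glucuronic acid synthesis, had 21.6, 21.7, 27.3 and 16.0 CPM in WT after 3 h and 0.118, 1.01, 1.80 and 2.08 CPM without Dex (4.04 ± 0.56; adjusted p = 0.00069). Its OE libraries after 7 days, at 4.02 to 7.41 CPM, were all below its 3 h libraries of either genotype. In 29 of the 45 genes the OE mean after 7 days was below the WT mean after 3 h, and in 25 of all members both 3 h means were above the OE mean after 7 days.

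Among the 45 were 4 genes that act in the breakdown of branched-chain amino acids, BCAT-2, AT1G21400, IVD and MCCA. BCAT-2, the first enzyme of that pathway, had 21.8, 18.5, 40.5 and 21.3 CPM in WT after 3 h and 0.575, 1.46, 3.16 and 2.82 CPM without Dex (3.60 ± 0.49 on the log2 scale; edgeR, adjusted p = 0.00061). After 7 days it had 26.5, 13.3, 4.10 and 4.70 CPM in OE libraries and 2.18, 2.50, 0.452 and 0.638 CPM in WT libraries. The libraries numbered 1 and 2 were the high ones of each genotype, and OE was above WT in every number.

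On a list of 19 genes of amino acid breakdown, put together after the values were seen, 6 were members: BCAT-2, AT1G21400, IVD, MCCA, GDH2 and HGO. AT1G21400, listed as a subunit of the branched-chain keto acid dehydrogenase, IVD and MCCA act in turn on the carbon chain of leucine, GDH2 releases ammonium from glutamate, and HGO opens the ring of tyrosine. All 6 were called higher after 3 h in WT, with log2 fold changes of 1.22 to 3.60. Of the 19 listed genes 11 were so called, beside 3.57% of all genes tested. After 7 days 2 of the 19, BCAT-2 and AT1G21400, were called higher in OE than in WT, beside 2.22% of all genes. IVD, MCCA, GDH2 and HGO were not called, and the genotypes overlapped for MCCA, GDH2 and HGO. As the list was put together with these values in view, its counts are a description. After 7 days MCCA had 256, 134, 52.3 and 47.2 CPM in OE libraries and 69.6, 57.6, 18.6 and 23.9 CPM in WT libraries, and GDH2 had 410, 248, 107 and 113 CPM in OE libraries and 112, 112, 44.2 and 55.9 CPM in WT libraries. DIN4, MCCB and ETFQO, which work beside these enzymes, missed the 7-day limit with ratios of 0.90, 0.93 and 0.94.

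Of 10 genes known from darkness and sugar shortage, a list likewise chosen afterwards, DIN2, BGAL4, GAT1_2.1, AT3G15450 and AT4G27450 were members. BGAL4, GAT1_2.1 and AT3G15450 were among the 45, with log2 fold changes in WT after 3 h of 1.88 ± 0.41, 1.63 ± 0.26 and 1.80 ± 0.20. DIN2 (-0.74 ± 0.49) and AT4G27450 (0.48 ± 0.26) were not called there. After 7 days 2 of the 10, DIN2 and GAT1_2.1, were called higher in OE than in WT, beside 2.22% of all genes. BGAL4, AT3G15450 and AT4G27450 were not called in that contrast. AT3G15450, annotated as an aluminum-induced protein, had 1243, 800, 225 and 201 CPM in OE libraries after 7 days and 408, 310, 43.0 and 83.5 CPM in WT libraries. After 3 h it averaged 559 ± 106 CPM in OE and 736 ± 38.1 CPM in WT, and without Dex 392 ± 54.3 CPM and 203 ± 53.9 CPM (SD, n = 4 each). BGAL4, a beta-galactosidase, had 260, 155, 88.6 and 90.2 CPM in OE libraries after 7 days and 55.7, 62.5, 12.0 and 19.6 CPM in WT libraries. SEN1 had a 7-day ratio of 1.92 and missed the rule through its ratio without Dex, and ASN1 (1.62) and DIN10 (1.34) missed it through their 3 h ratios.

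Other genes of the 45 had roles outside these pathways. FDH, the mitochondrial formate dehydrogenase, had 254, 185, 201 and 216 CPM in OE libraries after 7 days and 94.4, 102, 104 and 103 CPM in WT libraries, and it rose by 1.82 ± 0.06 in WT after 3 h (edgeR, adjusted p = 8e-07). AT1G62480, annotated as a vacuolar calcium-binding protein, had 526, 431, 324 and 340 CPM in OE libraries and 178, 163, 185 and 178 CPM in WT libraries. GLYI4, a glyoxalase, had 16.4, 13.0, 5.28 and 4.75 CPM in OE libraries and 2.12, 2.65, 0.972 and 1.84 CPM in WT libraries. For these 3 genes the genotypes did not overlap.

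CYP89A9, which acts in chlorophyll breakdown, had 15.4, 13.5, 10.6 and 12.7 CPM in OE libraries after 7 days and 2.20, 2.84, 2.88 and 2.83 CPM in WT libraries. It rose by 2.79 ± 0.15 in WT after 3 h (edgeR, adjusted p = 7.3e-06). J8, a chloroplast DnaJ chaperone, overlapped between genotypes, with 431, 298, 128 and 122 CPM in OE libraries and 170, 136, 58.0 and 68.9 CPM in WT libraries. AT1G19530 rose by 3.57 ± 0.19 in OE and 2.28 ± 0.33 in WT after 3 h, and the pseudogene AT5G28145 by 1.68 ± 0.26 in WT, where its OE estimate was 0.53 ± 0.15. AT4G36850, a PQ-loop membrane protein outside the 45 and among the 10 most abundant members, averaged 339 ± 117 CPM in OE and 141 ± 86.5 CPM in WT after 7 days.

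**Figure D3:**
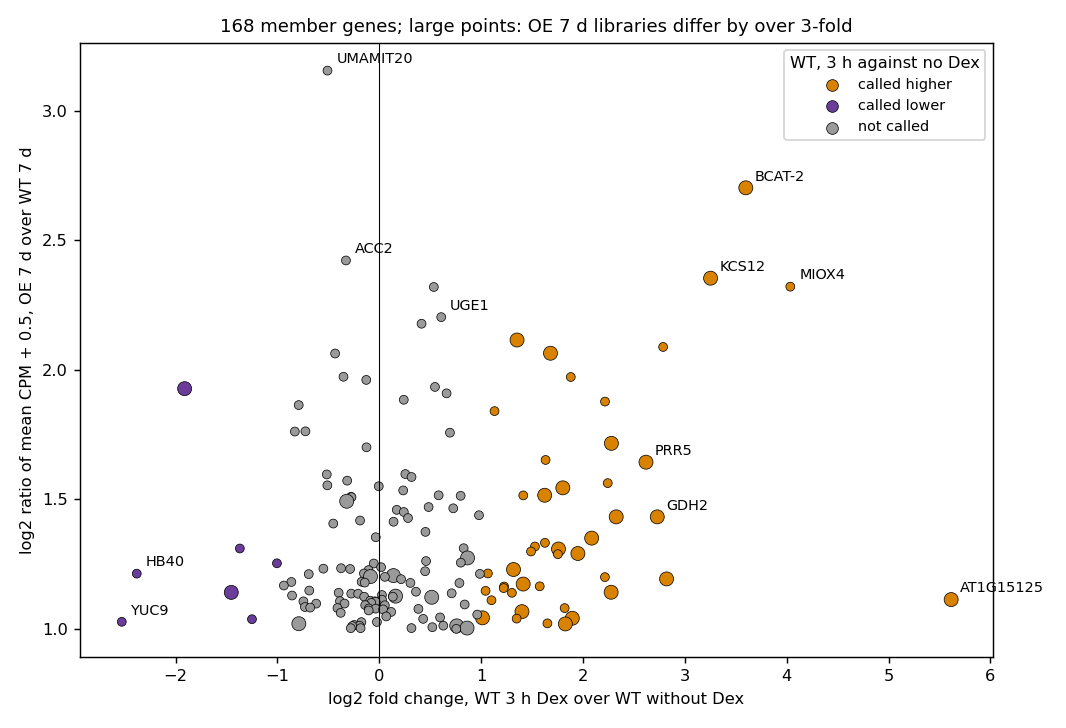
Each of 168 member genes by its log2 fold change in WT after 3 h of Dex against no Dex (horizontal) and its log2 ratio of OE to WT after 7 days (vertical), coloured by its edgeR call in WT after 3 h. Large points are genes whose highest OE library after 7 days was over 3 times the lowest; 22 of the 45 genes called higher in WT after 3 h are large, against 11 of the other members.

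The 45 genes called higher in WT after 3 h also differed from the other 126 members in how their replicates spread after 7 days. Among the 126 are AG, AT2G17170 and AT4G05380, which were not tested in WT after 3 h. OE and WT were separated for 26 of the 45 (57.8%) and for 114 of the 126 (90.5%), beside 14.8% of all genes tested. The 7-day contrast made the rule, so these counts describe only the spread between libraries. The highest OE library was 2.93 times the lowest at the median of the 45 and 1.54 times at the median of the 126, and in WT it was 2.59 and 1.51 times. The mean of the libraries numbered 1 and 2 was 2.26 times that of numbers 3 and 4 in OE and 1.73 times in WT at the median of the 45, against 1.03 and 1.13 times for the 126. Both genotypes had the higher mean in numbers 1 and 2 for 37 of the 45 genes and 54 of the 126. OE was above WT in every number for 43 of the 45 and 124 of the 126. The label does not say what the replicate numbers stand for, and their part in this result was not tested.

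Read per library, the 45 genes lay 1.33, 0.82, 0.07 and 0.06 above their own means over 24 libraries (median, log2 scale) in OE replicates 1 to 4 after 7 days, and -0.39, -0.35, -1.30 and -1.01 from them in WT. OE replicates 3 and 4 were thus above every WT library of that time but well below OE replicates 1 and 2. Without Dex the 45 lay -1.14, -0.94, -0.66 and -0.79 from their means in WT replicates 1 to 4. There numbers 1 and 2 were the low ones. In OE without Dex they lay -0.62 to -0.56 from their means. The other 126 members lay 1.00 to 1.10 above their means in all 4 OE libraries and -0.31 to -0.18 from them in WT. In both sets the 7-day difference between the genotypes was set by the rule and supports nothing further. Over 490 genes called higher in WT after 3 h with at least 2 CPM in OE after 7 days, members or not, numbers 1 and 2 were 1.21 times numbers 3 and 4 in OE and 1.27 times in WT at the median, and over all 16860 genes 0.97 and 1.02 times.

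**Figure D4:**
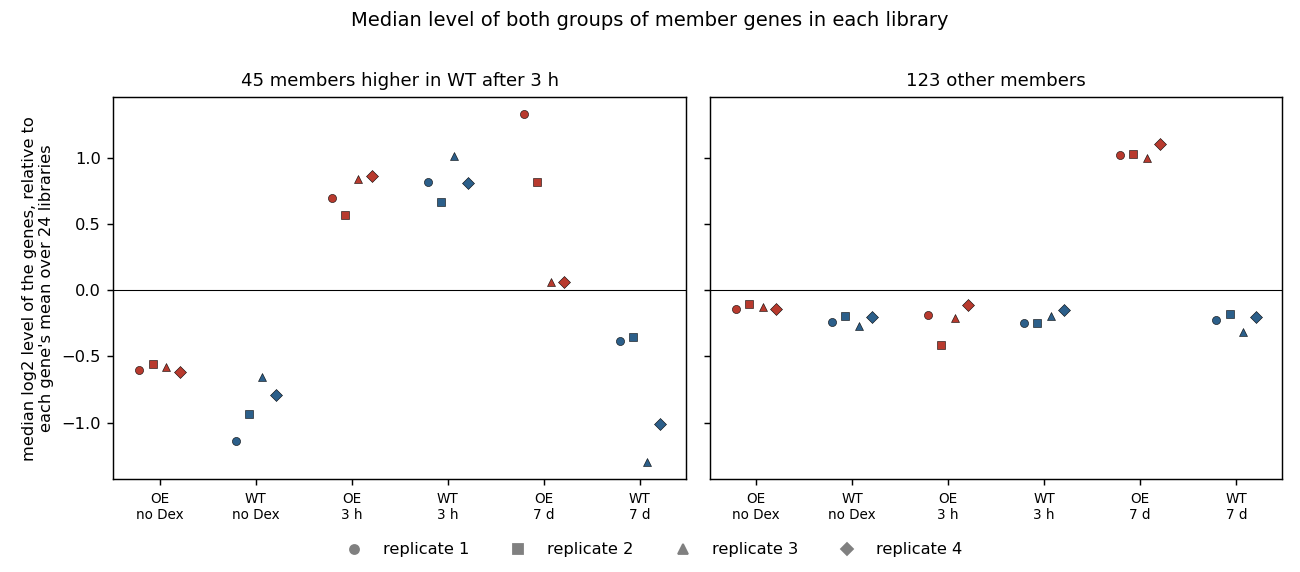
Median log2 level, relative to each gene's mean over 24 libraries, of the 45 members called higher in WT after 3 h of Dex and of the other 126 members, in each library; symbols give the replicate number and OE stands left of WT within each treatment. The 126 genes are high in the 4 OE libraries after 7 days alone, at 1.00 to 1.10. The 45 are also high in all 8 libraries taken after 3 h. That follows from their selection, since the WT 3 h call picked them and the rule's limits tie OE to WT at 3 h. The 7-day height of OE over WT likewise restates the rule. The 126 include 3 genes not tested in WT after 3 h, which the panel title leaves out of its count.

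PRR5, a clock gene that peaks in the second part of the day, had the widest spread among members of at least 5 CPM. It had 13.2, 6.56, 0.509 and 0.626 CPM in OE libraries after 7 days and 2.39, 1.81, 0.503 and 0.613 CPM in WT libraries, so that numbers 3 and 4 did not differ between the genotypes by more than their own spread. WCRKC1, a chloroplast thioredoxin, had 24.3, 12.5, 2.01 and 1.68 CPM in OE libraries and 8.64, 5.53, 1.94 and 2.15 CPM in WT libraries. NAC3 (ANAC055), a stress-induced factor, had 7.94, 5.50, 0.643 and 1.00 CPM in OE libraries and 1.65, 1.75, 0.972 and 1.10 CPM in WT libraries. Taken over numbers 3 and 4 alone, the 7-day ratio of WCRKC1 was -0.12 and that of NAC3 -0.22.

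In all, 33 members had OE libraries after 7 days that differed by over 3 times. In 25 of them numbers 1 and 2 were both above numbers 3 and 4, in 24 of these in WT as well, and in 7 the order was reversed. FRD3, the citrate exporter that keeps iron mobile in the xylem, was among the 7, with 1.70, 2.67, 9.09 and 14.8 CPM in OE libraries and 1.82, 2.38, 3.30 and 4.23 CPM in WT libraries. FRD3 was lower after 3 h in OE by 1.57 ± 0.20 (edgeR, adjusted p = 3e-05) and in WT by 1.45 ± 0.20 (adjusted p = 0.00071). The median member's OE libraries after 7 days differed 1.72 times, and the median gene's 1.29 times.

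The 7 members lower in WT after 3 h were YUC9, AT1G22065, AT2G16760, LHCB4.3, FRD3, AT4G14060 and HB40. YUC9, an auxin synthesis enzyme, averaged 0.493 ± 0.259 CPM after 3 h and 2.38 ± 0.314 CPM without Dex in OE, a change of -2.34 ± 0.28 (edgeR, adjusted p = 2.1e-05), and in WT the change was -2.53 ± 0.63 (adjusted p = 0.013). HB40, a homeodomain factor of axillary bud arrest, fell by 2.82 ± 0.39 in OE and by 2.38 ± 0.46 in WT. AT5G53730 (NHL26), a plasmodesmal protein of the phloem, fell in OE by 1.94 ± 0.19 (adjusted p = 4.4e-06), and in WT the estimate was -0.86 ± 0.24, under the fold threshold. AGP30, an arabinogalactan protein, rose in OE by 3.94 ± 0.78 (adjusted p = 0.00088) with 0.51 ± 0.72 in WT (adjusted p = 0.62), but its libraries after 7 days overlapped, at 0.357, 5.47, 2.31 and 2.58 CPM in OE and 0, 1.59, 1.31 and 0.939 CPM in WT.

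Compared with the same line without Dex, 116 of 171 members were called higher in OE after 7 days, beside 4.80% of all genes, and the members' median log2 fold change was 1.23. In WT the members stood at a median of -0.08 between 7 days and no Dex. Of 168 members tested in WT, 0 were called by edgeR, beside 0.00482% of all genes (1 gene), and DESeq2 called 0. At an unadjusted p under 0.05, 12 members were higher and 9 lower in WT. Both comparisons use 7-day libraries that entered the rule and are given as a description. Of the 171 members, 135 had their highest mean of all 6 groups in OE after 7 days.

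The promoters of members were searched on both strands for letters of known motifs. Each promoter ran from 250 bases before to 50 bases after the annotated start. Gene starts came from the authors' TAIR10 exon table, and the sequence from the RefSeq TAIR10.1 genome. The G-box (CACGTG) was in 5.85% of the 171, against 7.21% of 33322 gene promoters, the telo-box (AAACCCTA) in 4.09% against 8.15%, the GAGA repeat (GAGAGAGA) in 10.5% against 13.1%, the W-box core (TTGACC) in 12.3% against 13.5%, CCAAT in 48.5% against 49.7% and the CArG box in 1.75% against 2.73%. A further 6 strings were chosen after the values were seen. GATAAG, the I-box core, was in 19 of the 45 promoters of members higher in WT after 3 h (42.2%), against 17.5% of the other members, 22.5% of all 734 genes called higher there and 15.5% of all genes. TATCCA, known from sugar-repressed promoters, was in 31.1% of the 45, 16.7% of the other members, 19.3% of the 734 genes and 14.9% of all genes. The evening element (AAAATATCT), known from clock-controlled genes, was in 6 of the 45 (13.3%), 0.79% of the other members, 6.27% of the 734 genes and 2.42% of all genes. CCACG was in 35.6% of the 45, 15.1% of the other members, 20.8% of the 734 genes and 18.8% of all genes. ACGTG was in 33.3% of the 45, close to the 34.5% of the 734 genes, and in 22.2% of the other members and 25.6% of all genes. ACTCAT was less frequent in the 45 (11.1%) than in the other members (19.8%), the 734 genes (17.2%) and all genes (15.8%). These shares were not tested. GATAAG and TATCCA can overlap as CTTATCCA, which happened in 3 of the 7 promoters among the 45 that held both.

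The promoters of 5 members are shown because they carry these letters or, for UMAMIT20, hold neither although its gene had the largest ratio. Each is written 5′ to 3′ on the strand of its gene, from the TAIR10.1 genome, with capitals for GATAAG or the evening element on either strand. They are BCAT-2 at chr1:3287837-3288136 (plus strand), MIOX4 at chr4:13297448-13297747 (plus), AT3G15450 at chr3:5212734-5213033 (plus), PRR5 at chr5:8358824-8359123 (minus) and UMAMIT20 at chr4:5238656-5238955 (plus).
BCAT-2: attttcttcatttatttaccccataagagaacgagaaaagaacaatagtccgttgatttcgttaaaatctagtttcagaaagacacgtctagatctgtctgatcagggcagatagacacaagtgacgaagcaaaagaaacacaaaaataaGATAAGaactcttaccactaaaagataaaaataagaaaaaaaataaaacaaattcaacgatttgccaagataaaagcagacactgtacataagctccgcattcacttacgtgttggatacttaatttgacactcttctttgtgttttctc
MIOX4: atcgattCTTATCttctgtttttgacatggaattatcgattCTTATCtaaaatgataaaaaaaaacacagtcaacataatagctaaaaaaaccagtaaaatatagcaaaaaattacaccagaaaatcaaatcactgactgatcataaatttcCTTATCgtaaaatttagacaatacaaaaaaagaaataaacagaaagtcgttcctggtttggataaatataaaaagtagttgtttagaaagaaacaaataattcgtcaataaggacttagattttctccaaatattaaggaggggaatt
AT3G15450: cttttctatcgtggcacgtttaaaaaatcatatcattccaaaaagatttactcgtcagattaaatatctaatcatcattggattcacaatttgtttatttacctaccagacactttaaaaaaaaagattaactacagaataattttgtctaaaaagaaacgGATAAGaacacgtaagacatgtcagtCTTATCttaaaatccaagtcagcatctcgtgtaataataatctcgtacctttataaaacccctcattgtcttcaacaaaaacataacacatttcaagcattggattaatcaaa
PRR5: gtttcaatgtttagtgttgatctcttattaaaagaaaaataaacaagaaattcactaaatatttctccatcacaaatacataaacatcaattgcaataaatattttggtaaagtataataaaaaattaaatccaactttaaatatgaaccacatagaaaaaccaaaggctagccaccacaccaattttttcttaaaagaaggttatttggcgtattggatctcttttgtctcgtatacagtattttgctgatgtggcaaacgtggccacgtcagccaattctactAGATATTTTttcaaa
UMAMIT20: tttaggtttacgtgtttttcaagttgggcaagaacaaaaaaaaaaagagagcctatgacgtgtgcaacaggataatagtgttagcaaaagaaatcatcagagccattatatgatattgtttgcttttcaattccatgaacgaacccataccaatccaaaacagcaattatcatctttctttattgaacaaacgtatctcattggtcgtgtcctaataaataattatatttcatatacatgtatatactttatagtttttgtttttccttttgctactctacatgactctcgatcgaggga
MIOX4 held 3 GATAAG matches, AT3G15450 held 2 and BCAT-2 held 1. In PRR5 the evening element lay just after the start. The matches describe these letters in these windows and are not binding sites.

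Members lay on all 5 chromosomes, 46, 20, 30, 35 and 40 from chromosome 1 to 5, and 4 pairs were direct neighbours. UMAMIT20 and UMAMIT17 lay 3856 bases apart on the same strand with ratios of 3.15 and 1.08. NAC3 and NAC2 were 7421 bases apart with ratios of 1.19 and 1.91. AT3G27027 and AT3G27030 were 377 bases apart on opposite strands, with ratios of 1.55 and 1.35. The pseudogene AT4G16870 lay 68 bases from RPP4, a resistance gene against downy mildew, on the same strand, and both were higher after 3 h in WT, by 2.28 ± 0.21 and 1.89 ± 0.17 (edgeR, adjusted p = 9e-05 and 7.6e-05). After 7 days RPP4 had 95.8, 84.7, 32.0 and 26.9 CPM in OE libraries and 35.2, 36.8, 18.5 and 24.8 CPM in WT libraries, and AT4G16870 moved with the same libraries. Reads running across such close neighbours may be assigned to either gene.

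The limits of the rule fell among genes with nearly equal values. Just inside the 7-day limit were ATG8E, an autophagy gene with 55.1 CPM in OE and 27.3 CPM in WT, and AT2G04170 (both 1.00), and just outside were AT3G15800 (0.998) and PLC1 (0.995). At the 3 h limit AT1G15125 and TET6 (both 0.57) were kept, and AAP7, an amino acid permease (0.59), and AACT1 (0.60) were not. At the limit without Dex AT5G43440 and AT1G70820 (both 0.97 in size) were kept, and AT4G15680 (1.03) and MYBL2 (1.04) were not. At the level limit AT3G28960 (2.16 CPM) and AT3G04960 (2.18 CPM) were kept, and AT1G66173 and AT4G12580 (both 1.92 CPM) were not.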

How the data were processed

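RNA was sequenced from Arabidopsis shoots in 24 libraries, 4 in each of 6 groups, with a strand-directional kit, poly(A) selection and, per the study's methods, unique molecular identifiers. Per the submitters' processing notes the authors used Trimmomatic for trimming, STAR for alignment, the build TAIR10, featureCounts for reads over exons and RSEM for gene counts; their versions are not used here. The deposited estimated counts (RSEM's expected counts, not normalized, 3.82% of them not whole) gave the results, and the deposited exon counts, 83.3% to 97.8% of them per library, were an alternative. The 83.3% was that of OE replicate 2 after 3 h, and the next lowest share was 93.3%. The authors' exon table also gave gene positions and a Length column of exonic bases (unit other). Samples were grouped by their titles, since in the labels the cell type field holds the genotype and the genotype field holds the treatment.

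CPM, group means and the rule were computed from unrounded estimated counts in Python 3.11 with pandas 2.3.3 and numpy 2.4.6. Tests used edgeR 4.0.16 in R 4.3.3 on rounded counts of the 8 libraries compared: filter by expression, TMM scaling and the quasi-likelihood test, with Benjamini-Hochberg adjustment over all genes tested. Genes were called when the adjusted p was below 0.05 and the log2 fold change reached 1 in size. Errors of fold changes are approximate standard errors. Each is the size of the log2 fold change over the square root of the quasi-likelihood F value. The gene tests were also run on simulated libraries drawn independently of each other. Those lacked the split by replicate number seen after 7 days, so nothing is read from that run. Pairs of replicates differed by more than counting noise (chi-square per degree of freedom of at least 4.21 in 36 pairs), so each counts once. The largest values, 355 to 398, were those of OE replicate 2 after 3 h with the others of its group. Without that library 170 genes met the rule, and 38 members were called higher and 11 lower after 3 h in OE. Libraries of 1 number deviated together between OE and WT after 7 days (r 0.24 to 0.65, 4 of 8 libraries closest to their own number), which is a hint from the data, not from the labels. In no other comparison did they. Between 7 days and no Dex, r for libraries of the same number was -0.50 to 0.03 in OE and -0.52 to -0.24 in WT.

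Alternatives were exon counts, other scalings, added constants and level limits, DESeq2 1.42.0, the replicate block, no filter, no fold threshold and each library left out. Members, gene lists and tests were chosen with earlier results of these data known. Genes named are members on the lists, the 25 separated members of largest 7-day ratio, members the paper names, those at each limit, the 4 of widest spread, the 4 largest 3 h changes in each direction, neighbours, and the 10 most abundant; others were chosen after their values were seen. The TAIR10 and TAIR10.1 nuclear coordinates were checked on 81534 introns, of which 99.8% had splice-site letters at their ends in TAIR10.1. All 171 members matched RefSeq by locus.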

Additional observations from a re-analysis of the deposited data

Results flagged for a closer look

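In groups of 4 libraries, the gap between an extreme library and its neighbour was set against the group's range for the 62 named members after 7 days, 124 groups in all. Such a gap passed Dixon's 95% critical value in 4 groups, and chance alone flags about 1 in 20. AT2G17170 was flagged in both genotypes. In OE its replicate 1 had 2.97 CPM against a median of 2.13 CPM for the other 3 (gap 0.832 of the range), and in WT its replicate 2 had 0.0342 CPM with the other 3 at 0 (gap 1 of the range, a value that rests on a couple of counts). CYP89A9, a cytochrome P450 of chlorophyll breakdown, had 2.20 CPM in WT replicate 1 against a median of 2.84 CPM (0.920 of the range). AT3G27030 had 2.80 CPM in WT replicate 3 against a median of 2.42 CPM (0.841 of the range). None of these libraries crossed over to the other genotype's values.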

How the results depend on the processing

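The number of members was 171 in the main reading, 109 with 2 CPM added to each mean, and 279 with the 7-day libraries numbered 3 and 4 alone, of which 138 were shared with the main list; this reading and that on numbers 1 and 2 alone (164, of which 132 were shared) were chosen after seeing the data. It was 122 to 195 under the other planned settings and 144 to 217 with 1 library left out. Of the 45 members higher in WT after 3 h, 30 met the rule on numbers 3 and 4 alone and 41 on numbers 1 and 2 alone; of the other 126, 108 and 91 did. With 1 library left out, members called in OE against WT after 7 days numbered 107 to 119, in OE after 7 days against no Dex 100 to 124, in WT after 7 days 0 to 0, after 3 h in OE 38 to 41 higher and 9 to 13 lower, and after 3 h in WT 42 to 46 higher and 6 to 8 lower. Without the fold threshold the 3 h calls were 70 higher and 49 lower in OE, and 69 higher and 27 lower in WT. With the replicate number as a block, 154 members were called in OE against WT after 7 days, 125 of them shared with the 127 called without it; the block gave 99 for OE after 7 days against no Dex, 0 in WT, 39 and 10 after 3 h in OE and 44 and 7 in WT. DESeq2 called 148 after 7 days between genotypes. Of 558 values of named members under alternatives, 521 moved by less than the spread between replicates, 35 by more, and 2 turned round, both on numbers 3 and 4 alone: WCRKC1 to -0.12 and NAC3 to -0.22. Within 100 bases before the start the members' and all genes' motif shares were 1.75% and 3.13% for the G-box, 2.34% and 3.66% for the telo-box, 2.92% and 4.83% for the GAGA repeat, 19.3% and 20.7% for CCAAT, 0% and 0.891% for the CArG box, and 5.26% and 4.59% for the W-box core, where the members' share was the lower one over the longer window. In the 45 and in all genes they were 24.4% and 5.58% for GATAAG, 15.6% and 4.67% for TATCCA and 6.67% and 0.774% for the evening element. Depth limits genes near the 2 CPM minimum, such as AG, whose 4 WT libraries after 7 days held 22 counts in all.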
